A study of Xenopus laevis with 16 samples.

Results

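The comparison described here sets Xenopus laevis animal caps that carried a hormone-inducible Ptf1a against control caps after 25 h in dexamethasone, over all genes. It rests on 4 of the 16 RNA-seq libraries of the series, 2 per group, chosen by the labels for construct and treatment time. An animal cap is the prospective ectoderm cut from a blastula. For the Ptf1a caps, 20 pg of mRNA encoding ptf1a-GR had been injected at the animal side of each cell of the 2-cell embryo. The control caps were labelled CC and had received the same hormone for 25 h, and the labels name no mRNA for them. Every group of the series was kept in dexamethasone, so no group here lacks the hormone. The 2 libraries of Neurog2 caps (GR-neurog2, 20 pg) at 25 h and the 2 Ptf1a and 2 control libraries at 6 h served as the other arms of the tests. The labels do not say how many caps were pooled per library or whether the replicates came from separate batches of embryos. The p-values thus measure a spread between libraries, and it was estimated over all 16 libraries in 8 groups. Besides the groups above, that fit held Neurog2 caps at 6 h and caps with a Ptf1a W224A/W242A mutant (20 pg) at 6 h and 25 h.

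Ptf1a is a basic helix-loop-helix transcription factor that works in a complex with an E protein and the Notch pathway factor Rbpj, and it is known for steering progenitors of the dorsal spinal cord, cerebellum and retina to inhibitory rather than excitatory neurons, and for pancreas development. Fusion to the hormone-binding part of the glucocorticoid receptor (GR) keeps such a factor inactive until dexamethasone is added. Left to themselves, animal caps form larval epidermis, a sheet of keratin-rich and mucus-secreting cells with multiciliated cells, ionocytes and small secretory cells between them. Bone morphogenetic protein (BMP) signalling favours that fate, and ectoderm released from it can form neural tissue, with neural crest and placodes at the border between both. Neurog2 is a proneural factor of the same protein class.

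The deposited values were raw read counts per gene. The Ptf1a libraries held 62381440 and 105328483 counts and the control libraries 72761744 and 34675404, within a range of 31436437 to 228346016 over the series. All levels below are CPM, counts scaled by the size of the library with TMM factors, and no level is compared between genes, since CPM ignores gene length. Of 45038 genes, 30384 had enough counts to be tested. Xenopus laevis keeps 2 copies of many genes from an old genome duplication, named L and S after the chromosomes that hold them, and reads could be shared between copies. The labels do not say whether counting used strand. Replicates of a group correlated at 0.97 for Ptf1a and 0.968 for control caps (Pearson, log2 CPM across genes). Their counts differed by more than sampling noise, which does not show whether they came from separate embryos. All 4 libraries were counted as separate samples. In the check of cell type, all 16 tested copies of the neuron markers were higher in Ptf1a caps, with summed levels of 933 and 900 CPM against 29.0 and 29.0. The tested epidermis markers summed to 50100 and 66900 CPM against 108000 and 120000, but only 3 of their 14 copies were called lower and 0 higher.

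The construct was checked first. Transcripts counted to ptf1a.L (chromosome 6L, 23341343 to 23343013, build 9.1) stood at 2.37 and 3.86 CPM in the Ptf1a libraries at 25 h and at 0.413 and 0.159 CPM in the controls. The groups did not overlap, and the log2 difference was 3.30 ± 0.60 (SE; adjusted p = 0.0025, edgeR quasi-likelihood test over all 30384 genes, as for every adjusted p below). At 6 h the same gene had stood at 184 and 181 CPM in Ptf1a caps against 0.161 and 0.187 CPM in controls. The counts do not separate injected from endogenous transcripts. Its partner Rbpj was not called in either copy, with rbpj.L at 12 and 22.3 CPM against 14.5 and 13.1 CPM. The endogenous proneural gene neurog2.L rose from 0.0376 and 0.319 CPM in controls to 5.27 and 6.02 CPM, a log2 difference of 5.32 ± 0.57 (adjusted p = 0.00018).

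Many neuronal, neural plate and neural crest genes were higher in the Ptf1a caps at 25 h, and many ciliary and ionocyte genes were lower. In bulk caps, fewer cells of a type and less RNA per cell cannot be told apart, here or in any result below. At an adjusted p under 0.05, 3609 genes were higher (11.9% of those tested) and 2619 were lower (8.62%), together 6228 or 20.5%. The rises were the larger changes, with a median of 2.3 on the log2 scale and 666 genes changed over 32-fold, against a median size of 1.34 and 17 genes over 32-fold among the falls. Of the genes called higher, 245 had no count in either control library, whereas 17 of those called lower had none in either Ptf1a library. For genes without a count in 1 group, the size of the fold depends on a small count that the fit adds. The numbers over 32-fold may thus include sizes that were not measured, and this could hold for all 17 falls over 32-fold. Libraries of both groups did not overlap for 60.1% of all tested genes, for 3606 of the 3609 called higher and for 2618 of the 2619 called lower. The median log2 difference over all tested genes was 0.08, or 0.06 with genes absent from 1 group set to the bound that 3 counts over its libraries give. Medians of lists are given at that bound too where it moves them. Without control replicate 1 the counts were 1689 higher and 1270 lower, without control replicate 2 they were 1886 and 1437, and without Ptf1a replicate 1 they were 2292 and 1369. A DESeq2 Wald test gave 3938 higher and 4325 lower, so that 47.7% of its calls were rises against 57.9% here, and DESeq2 size factors in the edgeR fit gave 48.3%. No gene called in one direction was called in the other under any setting that kept single copies apart.

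Both copies of a gene could be tested for 7978 pairs. Both copies rose in 607 pairs and both fell in 284. In 39 pairs the copies were called in opposite directions, among them efnb2, which encodes an ephrin ligand. A single copy was called in 2051 pairs, and in 1589 of these the other copy had the same sign.

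The largest changes were ranked among called genes with a symbol, no overlap between the groups and a mean log2 CPM above 0 over the 4 libraries. That filter leaves out genes nearly absent from controls, such as sox10.L and gad1.1.L, whose ratios given below are larger. The 8 largest rises so ranked were all neuronal or neural genes, sncb.L, tubb2b.S, onecut1.2.L, prph.S, dpysl4.L, dpysl3.L, ebf2.S and irx1.L. Their log2 differences ran from 9.33 down to 8.65. The Iroquois gene irx1.L, a patterning factor of the neural plate, stood at 56.2 and 44.8 CPM against 0.150 and 0.0796 CPM. The 8 largest falls were smaller, from -3.99 to -3.20, and were cdx2.L, ankrd24.L, tnfsf10l.L, capn8.S, elovl2.L, ccdc67.L, adra2c.L and znf474.S. The fatty acid elongase gene elovl2.L, for example, stood at 7.91 and 12.1 CPM against 89.8 and 113 CPM, and the calpain gene capn8.S at 32.6 and 22.4 CPM against 302 and 261 CPM. Both fell far beyond the spread between replicates, with log2 differences of -3.34 ± 0.35 and -3.36 ± 0.52 (adjusted p = 0.00018 and 0.0011). The fall of ccdc67.L, which encodes a centriole amplification protein, was lost without Ptf1a replicate 2.

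**Figure D1:**
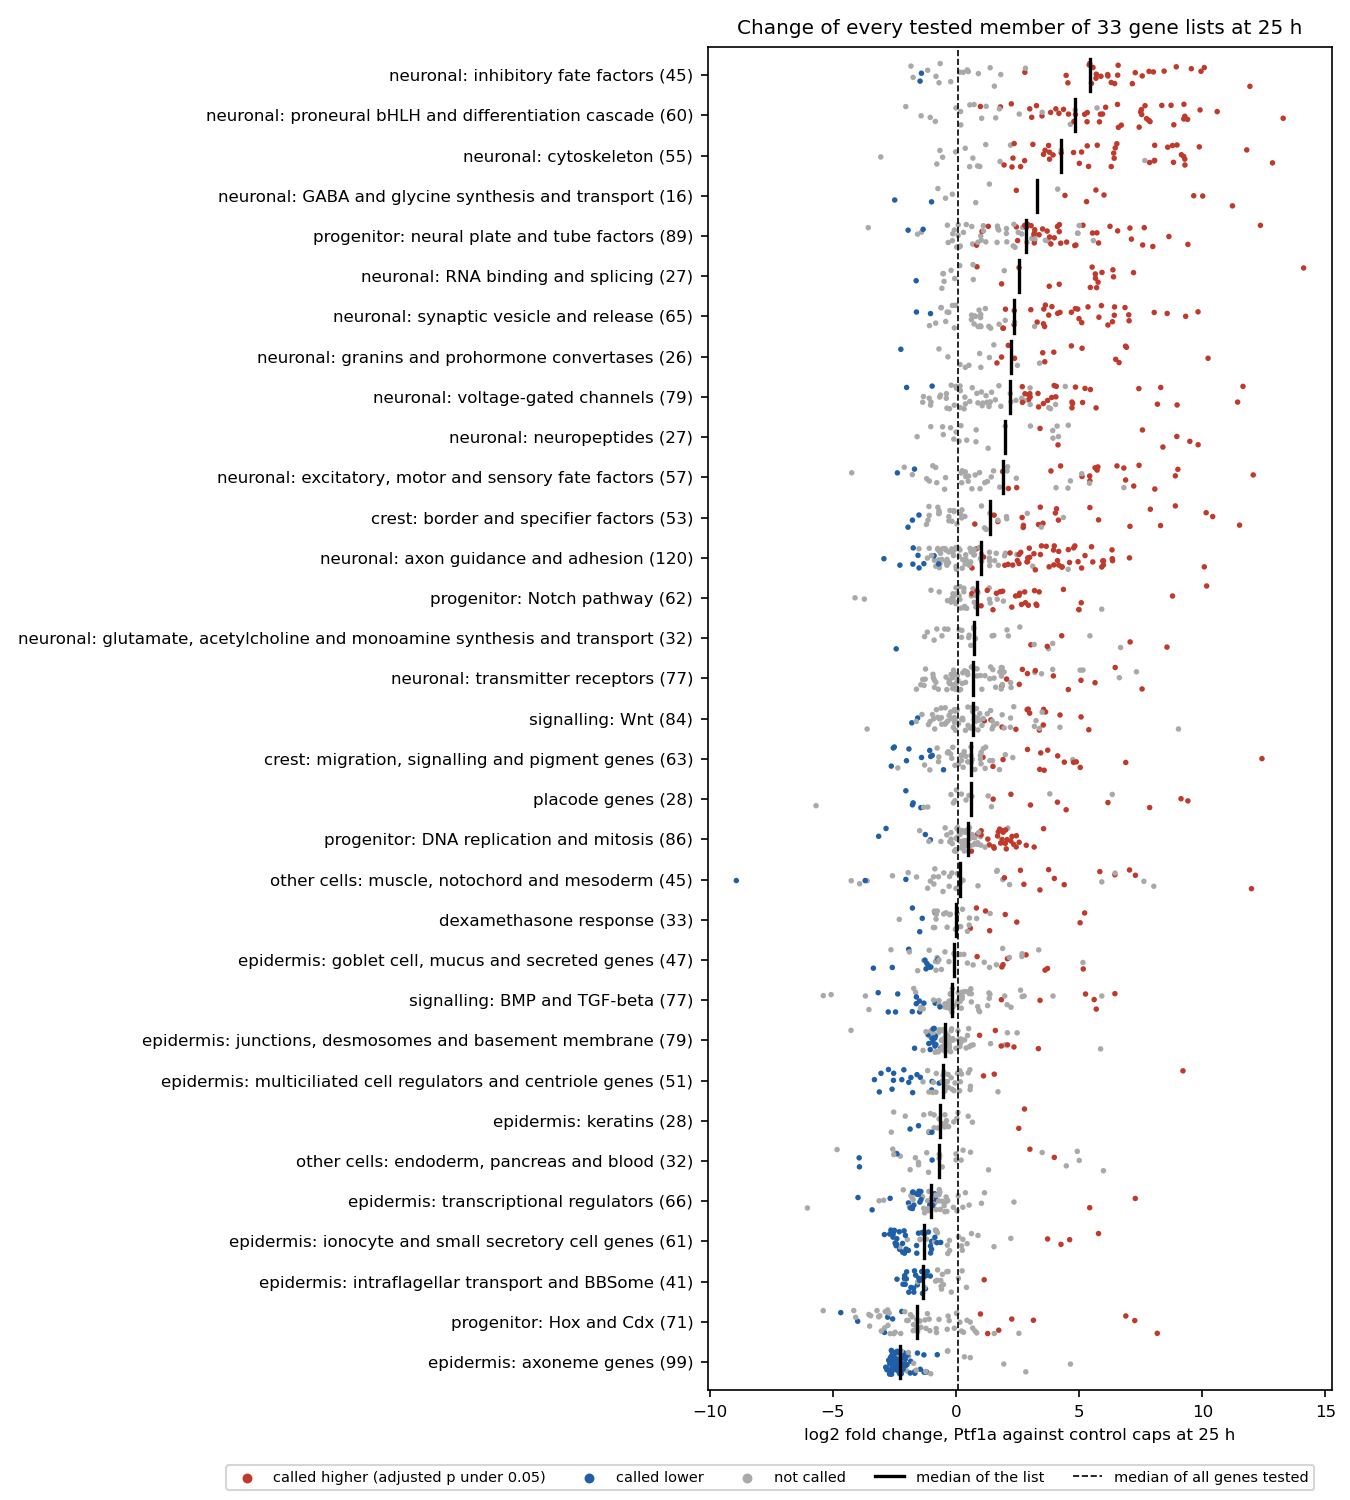
Log2 fold change of Ptf1a against control caps at 25 h (x axis) for every tested member of 33 gene lists (rows, with the number tested), coloured red where called higher, blue where called lower and grey where not called; the short black line is the list's median and the dashed line the median of all genes tested, 0.08. Neuronal lists have medians from 5.43 down to 0.70, with the neural plate, crest specifier and Notch lists among them. The axoneme genes at the bottom form a tight blue cluster around -2.29.

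The proneural cascade, the transcription factors that carry a progenitor into neuronal differentiation, rose broadly. Of 60 tested members of 68 in the files, 42 rose and 0 fell, with a median log2 difference of 4.85 (4.68 at the bound) against 0.08 over all genes tested. Between 30 and 40 members were called higher when any 1 library was left out. The proneural gene neurog1.L was at 12.3 and 21.2 CPM in Ptf1a caps and had no count in either control library, at least 456-fold higher against a floor of 3 counts over both control libraries. Its downstream factor neurod1.L stood at 15.3 and 23.4 CPM against 0 and 0.0796 CPM. With 2 control counts behind it, that ratio was 784 (95% exact counting interval 217 to 6481). The Onecut factor onecut1.2.L, a regulator of early neuron identity, was at 99.5 and 110 CPM against 0.0752 and 0.319 CPM. The differentiation factor ebf2.S was at 36.2 and 30.5 CPM against 0.0752 and 0.0796 CPM, a log2 difference of 8.73 ± 1.17 (adjusted p = 0.00051). The zinc finger gene myt1.L, which helps cells escape lateral inhibition, was at 87.3 and 86.6 CPM against 8.23 and 12.5 CPM. Its controls were well above 0 and its log2 difference was 3.07 ± 0.54 (adjusted p = 0.0021). In each of these genes both Ptf1a libraries lay above both control libraries. The groups did not overlap for 60.1% of all tested genes and for 3606 of the 3609 called higher.

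The neuronal cytoskeleton showed the widest gains among differentiated-neuron genes. Of 55 tested members, which are all in the files, 40 rose and 0 fell, with a median log2 difference of 4.27 and between 27 and 38 rises when 1 library was left out. Their summed level was 2760 and 3310 CPM against 166 and 174 CPM. The beta tubulin gene tubb2b.S reached 292 and 272 CPM against 0.376 and 0.558 CPM, a log2 difference of 9.30. The collapsin response mediator dpysl3.L, which acts in axon growth, reached 724 and 1131 CPM against 1.24 and 3.11 CPM, and the intermediate filament gene prph.S reached 300 and 405 CPM against 0.564 and 0.558 CPM. Both pairs of libraries were far apart, with log2 differences of 8.79 ± 0.84 and 9.29 ± 0.86 (adjusted p = 0.00013 and 0.00012). The stathmin gene stmn2.L, a microtubule regulator of growing axons, had 13.4 and 11.4 CPM and no control count, at least 319-fold higher.

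**Figure D2:**
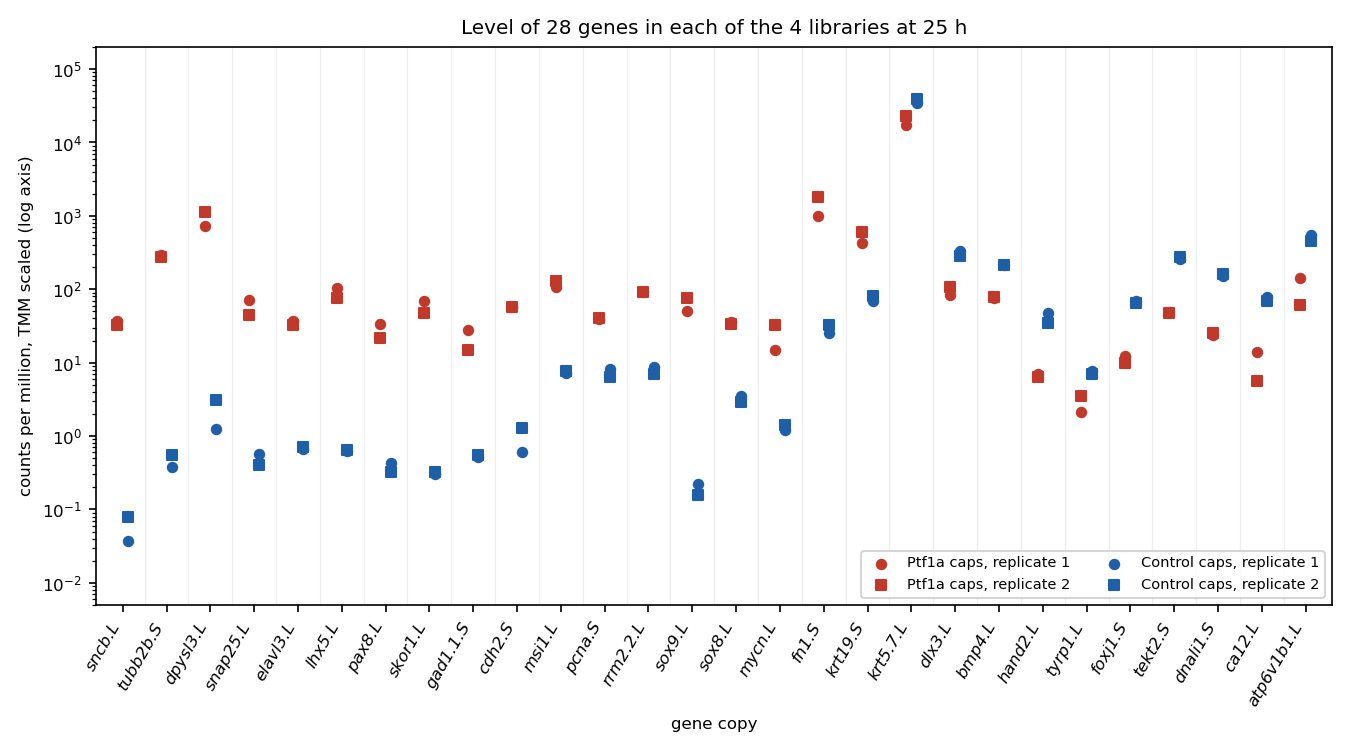
Level of 28 gene copies (x axis) in each of the 4 libraries at 25 h (y axis, TMM-scaled CPM on a log axis), with Ptf1a caps in red and control caps in blue and replicates 1 and 2 as circles and squares. The genes from sncb.L to krt19.S lie higher in both Ptf1a libraries (krt19.S not when L and S copies were summed). Those from dlx3.L to atp6v1b1.L, listed under epidermis, BMP signalling, crest derivatives, cilia and ionocytes, lie lower, while krt5.7.L, at the top, was not called.

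Genes of RNA processing, transmitter release and excitability rose to different extents. Among neuronal RNA-binding and splicing factors 16 of 27 tested rose and 1 fell, with a median log2 difference of 2.56. The Elav gene elavl3.L, a pan-neuronal marker, stood at 36.5 and 32.6 CPM against 0.658 and 0.717 CPM, a log2 difference of 5.66 ± 0.83 (adjusted p = 0.00083). The neuronal splicing regulator nova2.S was at 29.1 and 30.4 CPM with no control count, at least 780-fold higher. The one fall, elavl2.L, lost its call without control replicate 1 or Ptf1a replicate 2 and in fits to the 4 or the 8 libraries of 25 h. Of 65 tested genes of synaptic vesicles and release, 34 rose and 2 fell, and 20 rose without control replicate 1, and 1 fell whichever library was left out. Among the rises was sncb.L (chromosome 3L, 40192885 to 40229746), which encodes beta-synuclein, a presynaptic protein. It was at 37.1 and 32.7 CPM against 0.0376 and 0.0796 CPM, with a log2 difference of 9.33 ± 1.05 (adjusted p = 0.00023). The SNARE gene snap25.L was at 70.8 and 44.4 CPM against 0.564 and 0.398 CPM. The fall that held was nsf.L, the ATPase that recycles SNARE complexes in all secretory traffic, at 77.9 and 90.4 CPM against 282 and 231 CPM.

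Granins and prohormone convertases, the cargo and enzymes of dense-core vesicles, rose in 14 of 26 tested members and fell in 1. The granin scg3.S stood at 8.60 and 10.4 CPM against 0.0752 and 0.0796 CPM, a log2 difference of 6.92 ± 0.68. Its counterpart pcsk1.S, a convertase, fell from 9.40 and 6.73 CPM to 1.51 and 1.91 CPM. Neuropeptide genes were sparse, with 27 of 48 tested, 7 higher, 0 lower, and 2 higher without control replicate 1. The peptide gene sst.L, which encodes somatostatin, reached 7.03 and 8.11 CPM against 0.113 and 0.796 CPM. Voltage-gated channel genes rose in 29 of 79 tested members and fell in 2, but 8 rose without control replicate 1, 14 without control replicate 2 and 17 without Ptf1a replicate 1, and at most 1 fell whichever library was left out. The auxiliary calcium channel subunit cacnb1.S stood at 15.6 and 13.5 CPM against 0.0376 and 0.159 CPM, a log2 difference of 7.42 ± 1.14 (adjusted p = 0.001). Transmitter receptor genes lay near the share of all genes, with 12 of 77 higher (11.9% of all genes were), 0 lower and 2 higher without control replicate 1. The GABA-B receptor gene gabbr1.L was among them, at 21.3 and 8.71 CPM against 0.564 and 0.717 CPM.

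Of 120 tested genes of axon guidance and adhesion, 48 rose and 9 fell, with a median log2 difference of 1.03 (1.01 at the bound), and 32 to 40 rose and 6 or 7 fell when 1 library was left out. The neural cell adhesion molecule ncam1.L stood at 76.5 and 101 CPM against 2.18 and 2.55 CPM, a log2 difference of 5.24 ± 0.48 (adjusted p = 0.00011), and the presynaptic adhesion gene nrxn3.L at 10.6 and 9.56 CPM against 0.319 and 0.398 CPM. Both rose well beyond the spread between replicates. The netrin receptor unc5b.S fell from 70.3 and 69.6 CPM to 26.2 and 23.2 CPM, a log2 difference of -1.5 ± 0.17 (adjusted p = 0.00023), and the ephrin ligand efnb2.L fell from 139 and 118 CPM to 40.7 and 36.5 CPM.

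Many factors that set inhibitory neuron fate rose in the Ptf1a caps. Of 45 tested copies of inhibitory fate factors, 27 rose and 2 fell, with a median log2 difference of 5.43 (5.37 at the bound), the highest of the 33 lists. When 1 library was left out, 19 to 23 rose and 0 or 1 fell. The LIM homeobox gene lhx5.L (chromosome 1L, 145214306 to 145236573), a factor of inhibitory interneuron progenitors, stood at 105 and 75.2 CPM against 0.620 and 0.637 CPM. This copy had stood higher still in 6 h controls, as given below, so its level was not new at 25 h. Its log2 difference was 7.16 ± 0.58 (adjusted p = 5.8e-05), and lhx5.S rose as well. The corepressor gene skor1.L was at 69.2 and 47.9 CPM against 0.301 and 0.319 CPM, a log2 difference of 7.56 ± 0.71 (adjusted p = 0.00012). The Pax gene pax8.L, a marker of inhibitory spinal interneurons, was at 33.6 and 21.6 CPM against 0.432 and 0.319 CPM. This gene is also in the placode list. The Prdm factor prdm13.S, a target of Ptf1a in the dorsal neural tube known to repress excitatory genes, was at 38.1 and 24.2 CPM against 0.188 and 0 CPM. The homeobox gene lhx1.L was at 4.39 and 4.85 CPM against 0.0752 and 0 CPM. In all 5 genes with values here both Ptf1a libraries lay above both controls, and replicate 1 was the higher one in 4 of them. Groups without overlap were common, at 60.1% of all tested genes and 3606 of the 3609 called higher.

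The machinery for GABA and glycine gave a mixed picture. Of 16 tested copies 8 rose and 2 fell, 5 rose without control replicate 1, and 0 or 1 fell whichever library was left out. The GABA-synthesizing enzyme gene gad1.1.L stood at 37.7 and 16.7 CPM against 0.0376 and 0 CPM, with 2 control counts and a ratio of 997 (95% exact counting interval 276 to 8237). Its homeolog gad1.1.S was at 27.7 and 15.1 CPM against 0.526 and 0.558 CPM, a log2 difference of 5.30 ± 0.76 (adjusted p = 0.00067). The vesicular inhibitory transmitter transporter slc32a1.S was at 5.07 and 2.96 CPM with no control count, at least 100-fold higher, a call that was lost without control replicate 1. The glycine transporter slc6a5.L was at 9.32 and 3.74 CPM against 0.188 and 0.0398 CPM. In contrast, gad1.2.L fell from 218 and 135 CPM to 36.8 and 26.2 CPM, a call lost without control replicate 1 or Ptf1a replicate 2. For these genes replicate 1 of the Ptf1a caps was the higher one throughout.

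Excitatory, motor and sensory fate factors rose in 20 of 57 tested copies and fell in 2, with a median log2 difference of 1.89 (1.46 at the bound). That count rested on every library: 5 rose without control replicate 1, 10 without control replicate 2, 12 without Ptf1a replicate 2 and 13 without Ptf1a replicate 1, and neither fall held without control replicate 2 or Ptf1a replicate 1. The POU factor pou4f1.L, known from sensory neurons, stood at 10.9 and 16.2 CPM against 0.0752 and 0.0796 CPM, a log2 difference of 7.43 ± 1.04 (adjusted p = 0.0006). The glutamatergic selector tlx3.L was at 0.584 and 0.592 CPM against 0.0752 and 0.159 CPM and was not called. Genes of glutamate, acetylcholine and monoamine synthesis and transport rose in 5 of 32 tested copies (11.9% of all genes rose) and fell in 1, and 2 or 3 rose whichever library was left out. The rise with the smallest p was slc1a3.L, the glial and progenitor glutamate transporter, at 94.8 and 140 CPM against 0.676 and 1.12 CPM.

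Progenitor genes were also higher in the Ptf1a caps. Of 89 tested neural plate and tube factors, out of 101 in the files, 40 rose and 2 fell, with a median log2 difference of 2.86 (2.67 at the bound) and 28 to 37 rises when 1 library was left out. The falls numbered 0 without control replicate 2 or Ptf1a replicate 1. The pan-neural factor sox2.S stood at 12.5 and 19.1 CPM against 0.526 and 0.558 CPM, a log2 difference of 4.87 ± 0.59 (adjusted p = 0.00029). The progenitor RNA-binding gene msi1.L was at 109 and 128 CPM against 7.14 and 7.73 CPM, and the neural cadherin cdh2.S at 57.5 and 58.0 CPM against 0.601 and 1.27 CPM. The dorsal progenitor factor olig3.S was at 10.3 and 7.35 CPM with no control count, at least 224-fold higher. Not every early neural gene was called, since zic1.L was at 0.399 and 0.241 CPM against 0.150 and 0 CPM. In the Notch pathway, which holds progenitors back from differentiating, 26 of 62 tested copies rose and 0 fell, with 12, 15 and 17 rises without control replicate 1, control replicate 2 and Ptf1a replicate 1. The ligand gene dll1.L stood at 38.5 and 25.6 CPM against 1.39 and 1.75 CPM, the receptor gene notch3.L at 37.2 and 57.1 CPM against 12.2 and 15.1 CPM, and the effector gene hey1.L at 36.2 and 39.2 CPM against 3.78 and 4.14 CPM. Their log2 differences were 4.36 ± 0.70, 1.79 ± 0.25 and 3.25 ± 0.42 (adjusted p = 0.0013, 0.00061 and 0.00041).

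Several genes of DNA replication rose. Of 86 tested genes of replication and mitosis, 28 rose and 4 fell, with a median log2 difference of 0.50. When 1 library was left out, 19 to 26 rose, and 1 fell without control replicate 1 or Ptf1a replicate 1. The ribonucleotide reductase subunit rrm2.2.L stood at 92.6 and 90.6 CPM against 8.61 and 6.93 CPM, a log2 difference of 3.56 ± 0.24 (adjusted p = 5.8e-05). The replication clamp pcna.S was at 38.9 and 40.6 CPM against 8.10 and 6.45 CPM, and the replicative helicase subunit mcm2.S at 31.6 and 35.8 CPM against 6.28 and 5.10 CPM. The mitotic kinase plk1.L was at 88.1 and 89.7 CPM against 93.5 and 77.5 CPM, with overlapping groups. The cyclin gene ccna1.S, a cyclin A form of eggs and early embryos, fell from 32.8 and 35.4 CPM to 4.98 and 2.79 CPM, a log2 difference of -3.14 ± 0.50 (adjusted p = 0.0012).

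Anterior-posterior patterning genes went both ways. Of 71 tested Hox, Cdx and cofactor genes out of 92 in the files, 8 rose and 6 fell, near the shares of all genes, with a median of -1.57. Without control replicate 2, 5 rose, and without Ptf1a replicate 1, 3 fell. The Hox cofactor meis3.L stood at 134 and 110 CPM against 25.5 and 25.3 CPM, a log2 difference of 2.26 ± 0.38 (adjusted p = 0.0015). The caudal gene cdx2.L, a posterior factor, was at 2.49 and 1.73 CPM against 34.3 and 32.8 CPM, lower by a log2 difference of -3.99 ± 0.63 (adjusted p = 0.0011).

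Neural crest specifiers of the Sox family rose steeply. Of 53 tested copies of border and specifier factors 21 rose and 3 fell, with a median log2 difference of 1.38 and 13 rises without control replicate 1, while 0 or 1 fell whichever library was left out. The crest and placode factor sox9.L stood at 49.99 and 77.0 CPM against 0.225 and 0.159 CPM, a log2 difference of 8.30 ± 0.67 (adjusted p = 5.8e-05). Its relative sox10.L, which marks migrating crest and later glia, was at 40.6 and 39.3 CPM against 0 and 0.0796 CPM, a ratio of 1561 on 2 control counts (95% exact counting interval 432 to 12890). The specifier foxd3.L was at 5.04 and 4.77 CPM with no control count, at least 128-fold higher. All 3 were nearly silent in control caps, whereas sox8.L at 35.4 and 33.7 CPM rose from a measurable 3.48 and 2.95 CPM, a log2 difference of 3.42 ± 0.41 (adjusted p = 0.00028). The border factor pax3.L was at 18.0 and 13.2 CPM against 0.282 and 0.279 CPM and mycn.L at 14.7 and 32.7 CPM against 1.22 and 1.43 CPM. Of the 17 crest marker copies 14 rose and 0 fell, with summed levels of 423 and 535 CPM against 184 and 172 CPM. Among the copies not called was snai2.S, at 19.7 and 24.8 CPM against 20.8 and 26.2 CPM. Of the 14 that rose, snai2.L, at 20.9 and 27.7 CPM against 8.27 and 8.36 CPM, lost its call whichever of the 4 libraries was left out. The border factor msx1.L, a BMP target, fell from 175 and 147 CPM to 73.1 and 40.8 CPM, a call lost without control replicate 1, control replicate 2 or Ptf1a replicate 2.

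Genes of crest migration and derivatives split. Of 63 tested copies 15 rose and 10 fell, together 39.7% against 20.5% of all genes. Without control replicates 1 and 2 the rises were 7 and 9, and the falls were 5 without either control replicate and 6 without Ptf1a replicate 2. The integrin subunit itga4.S, used in migration on fibronectin, stood at 7.14 and 5.50 CPM against 0.526 and 0.159 CPM, a log2 difference of 4.13 ± 0.70 (adjusted p = 0.0017), and the mesenchymal cadherin cdh11.S at 8.48 and 9.94 CPM with no control count. The falls included hand2.L, a factor of ventral crest and sympathetic neurons, from 48.1 and 35.2 CPM to 7.06 and 6.40 CPM, and the melanin enzyme gene tyrp1.L, from 7.74 and 7.09 CPM to 2.12 and 3.49 CPM. Which cells of the control caps held these transcripts was not tested, and foxd3.L had no count in those caps. Among 5 tested pigment cell markers 2 fell and 0 rose. Placode genes rose in 9 of 28 tested copies and fell in 4, together 46.4% against 20.5% of all genes. Fewer of them fell whichever library was left out. The rises included pax8.L, with values given above. Among the falls was the T-box gene tbx3.S, from 228 and 234 CPM to 53.4 and 59.2 CPM.

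Among epidermal genes the calls were mostly falls, but in several lists most members were not called. The 28 tested keratin copies summed to 65200 and 89800 CPM in Ptf1a caps and 139000 and 153000 CPM in controls. Single keratins passed the test near the share of all genes, with 4 lower and 2 higher, or 21.4% called against 20.5%. Fewer were lower when Ptf1a replicate 1 or either control replicate was left out, and fewer were higher without control replicate 1. The larval keratin krt5.7.L stood at 17399 and 22599 CPM against 34518 and 39343 CPM, a log2 difference of -0.88 ± 0.39 (adjusted p = 0.14). The groups did not overlap, yet the difference was within the spread that the fit allows. The larval keratin krt12.L fell from 2457 and 1895 CPM to 569 and 627 CPM, a log2 difference of -1.86 ± 0.27 (adjusted p = 0.00074), a call lost when L and S copies were summed. The simple-epithelium keratin krt19.S rose from 69.4 and 80.6 CPM to 426 and 604 CPM. With L and S copies summed its log2 difference was -0.355 and was not called (adjusted p = 0.309, the same edgeR test). The IgG Fc binding protein gene fcgbp.L, a mucus component, stood at 8493 and 12230 CPM against 28137 and 28669 CPM and lost its call without Ptf1a replicate 1.

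Epidermal transcription factors were mostly lower, but the number called rested on each library. Of 66 tested copies 22 fell and 2 rose, with a median log2 difference of -1.03, and the falls numbered 4 without control replicate 1, 8 without Ptf1a replicate 1, 10 without control replicate 2 and 12 without Ptf1a replicate 2. The BMP-driven homeobox gene dlx3.L stood at 82.9 and 107 CPM against 337 and 285 CPM, a log2 difference of -1.71 ± 0.32 (adjusted p = 0.0029). The factor cebpa.L was at 3.26 and 2.35 CPM against 23.5 and 12.3 CPM. The basal epidermal master gene tp63.L, at 146 and 152 CPM against 212 and 184 CPM, was not called. A rise went the other way in tfap2b.S, an AP-2 factor also active in inhibitory neurons, at 56.1 and 87.3 CPM against 1.73 and 1.59 CPM, a log2 difference of 5.43 ± 0.52 (adjusted p = 0.00013). Junction, desmosome and basement membrane genes fell in 15 of 79 tested copies and rose in 6. Together 26.6% were called, against 20.5% of all genes (8.62% lower and 11.9% higher). Fewer fell and fewer rose whichever library was left out. The tight junction gene cgn.L stood at 165 and 159 CPM against 331 and 381 CPM, whereas the claudin cldn6.2.L rose from 46.6 and 54.1 CPM to 205 and 224 CPM. Goblet cell, mucus and secreted genes fell in 10 of 47 copies and rose in 8, together 38.3% against 20.5% of all genes. Here too, fewer fell and fewer rose whichever library was left out. The hyaluronan synthase has1.S stood at 117 and 234 CPM against 879 and 1228 CPM, a log2 difference of -2.59 ± 0.32 (adjusted p = 0.00031).

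Within BMP and TGF-beta signalling, copies of the ligand genes bmp4 and bmp7.1 fell. Of 77 tested genes of BMP and TGF-beta signalling 12 fell and 6 rose, together 23.4%, near the 20.5% of all genes. Fewer fell whichever library was left out, and fewer rose without control replicate 1 or Ptf1a replicate 1. The ligand gene bmp4.L (chromosome 8L, 71269729 to 71276125) stood at 76.4 and 77.5 CPM against 214 and 214 CPM, and bmp7.1.S at 22.0 and 35.2 CPM against 140 and 174 CPM. Neither pair of groups overlapped, with log2 differences of -1.48 ± 0.17 and -2.45 ± 0.28 (adjusted p = 0.00026 and 0.00025). The receptor gene bmpr1b.S went up from 0.113 and 0.478 CPM to 12.7 and 7.96 CPM. The BMP antagonists nog.L, at 3.26 and 3.25 CPM against 2.89 and 1.67 CPM, and chrd.1.L, at 0.0614 and 0.0877 CPM against 0.188 and 0.0796 CPM, were not called. In the Wnt list 14 of 84 copies rose and 2 fell, together 19%, also near the share of all genes. Fewer rose whichever library was left out, and fewer fell without control replicate 1 or Ptf1a replicate 1. The secreted Wnt inhibitor gene notum.L stood at 5.90 and 4.54 CPM against 0.376 and 0.478 CPM, a log2 difference of 3.64 ± 0.26 (adjusted p = 5.8e-05).

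The most uniform change of any list was in the motile cilium. Of 99 tested axoneme genes, out of 104 in the files, 80 fell and 0 rose. Their median log2 difference was -2.29, with the middle 50% between -2.57 and -2, and 61 to 69 fell when 1 library was left out. The summed level was 1590 and 1470 CPM against 7250 and 7950 CPM. The inner dynein arm gene dnali1.S (chromosome 2S, 68997270 to 69011565) stood at 23.6 and 25.0 CPM against 153 and 160 CPM, a log2 difference of -2.69 ± 0.25 (adjusted p = 0.00012). The outer arm gene dnai1.L was at 36.6 and 31.1 CPM against 168 and 174 CPM, the tektin tekt2.S at 49.1 and 47.4 CPM against 259 and 278 CPM, and the central pair gene spag6.S at 13.9 and 14.1 CPM against 78.8 and 94.1 CPM. Structural parts of the axoneme thus lay at similar fractions of the control level, with replicates close together. Intraflagellar transport and BBSome genes, which build cilia of all cell types, fell in 24 of 41 tested copies with a median of -1.33, and 20 to 22 fell when 1 library was left out. The transport gene ift46.S was at 32.3 and 35.1 CPM against 134 and 121 CPM. The one rise, bbs10.L, lost its call without control replicate 2.

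Regulators of multiciliated cells fell in 17 of 51 tested copies and rose in 3, with 11 falls without Ptf1a replicate 2 and 1 rise without control replicate 1. The master factor of motile cilia foxj1.S stood at 12.4 and 9.87 CPM against 70.2 and 64.7 CPM, a log2 difference of -2.60 ± 0.37 (adjusted p = 0.00069). The centriole amplification gene ccno.S was at 0.461 and 0.197 CPM against 2.89 and 2.71 CPM, and the centrin cetn4.L at 4.18 and 5.50 CPM against 41.0 and 39.0 CPM. A member that rose was e2f4.S, a cell cycle factor that multiciliated cells reuse, at 15.9 and 11.2 CPM against 4.68 and 4.54 CPM.

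**Figure D3:**
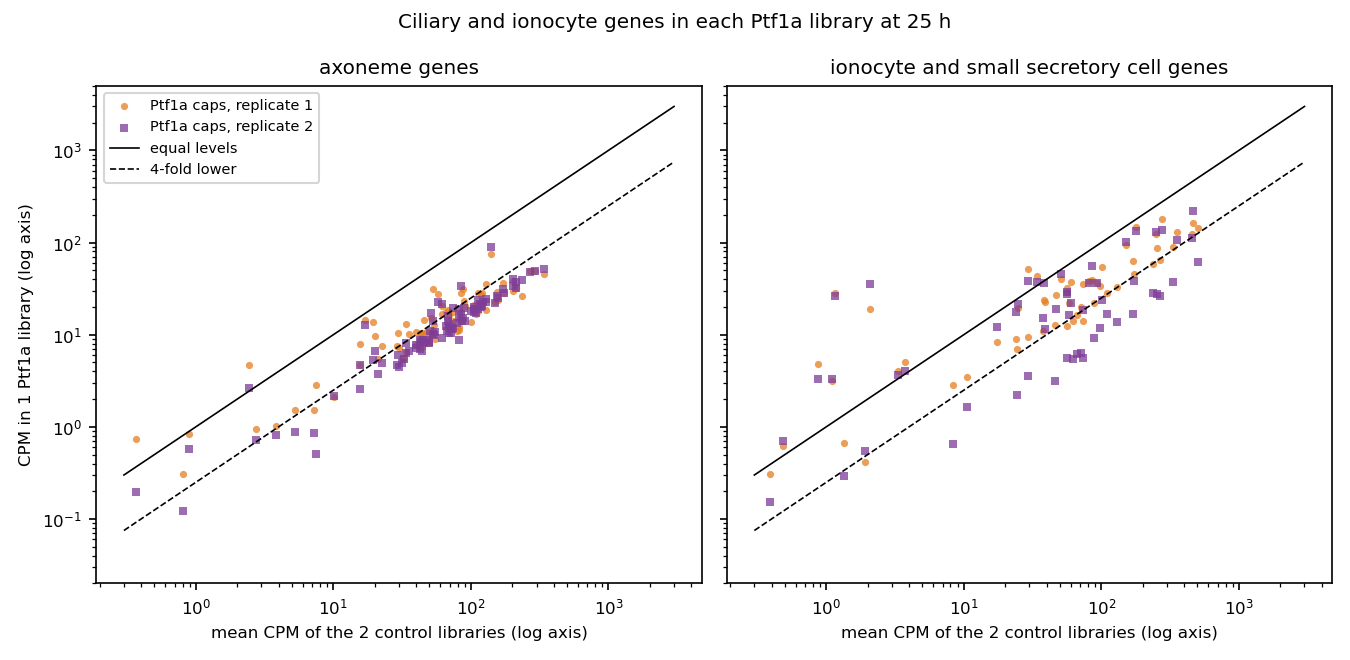
Level of each gene in Ptf1a replicate 1 (orange circles) and replicate 2 (purple squares) against the mean of both control libraries, all in CPM on log axes, for axoneme genes (left, 95 of 99 drawn) and ionocyte and small secretory cell genes (right, 57 of 61 drawn); genes with a control mean of 0.3 CPM or less or with no count in a Ptf1a library are left out. Axoneme genes run along the dashed line of a 4-fold fall in both replicates, and ionocyte genes scatter more widely; replicate 2 lies below replicate 1 for 71 of 99 axoneme and 43 of 61 ionocyte genes.

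Ionocytes, the ion-transporting cells of the skin, showed a fall in many of their genes. Among 61 tested genes of ionocytes and small secretory cells, 36 fell and 4 rose, with a median log2 difference of -1.28, and 19 and 20 fell without control replicate 1 and Ptf1a replicate 2, and 2 rose without control replicate 1. Ptf1a replicate 2 lay below replicate 1 for 43 of the 61, with a median log2 ratio of -0.44 between the replicates against -0.01 over all genes. Control replicate 2 also lay below control replicate 1 for 42 of them, with a median of -0.19. The carbonic anhydrase ca12.L stood at 14.1 and 5.60 CPM against 78.1 and 69.2 CPM, a log2 difference of -2.91 ± 0.41 (adjusted p = 0.00065). The proton pump subunit atp6v1b1.L was at 144 and 61.5 CPM against 554 and 457 CPM. The ionocyte master factor foxi1.L was at 20.1 and 6.29 CPM against 80.3 and 61.1 CPM, a call lost without either control replicate or Ptf1a replicate 2. In these 3 genes replicate 2 lay well under replicate 1, and both lay under the controls. In the opposite direction, foxi2.L, a related factor of early ectoderm and placodes, rose from 2.22 and 1.91 CPM to 19.0 and 35.7 CPM, a log2 difference of 3.72 ± 0.39 (adjusted p = 0.00018). The small secretory cell markers were not called, with foxa1.L at 24.1 and 36.5 CPM against 39.8 and 36.6 CPM.

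Some genes known from mesoderm rose, while markers of other germ layers stayed low. Muscle, notochord and mesoderm genes rose in 12 of 45 tested copies (11.9% of all genes rose) and fell in 3, with 5 to 7 rises and 0 or 1 fall whichever library was left out. Among them des.1.L, an intermediate filament gene of muscle, stood at 26.4 and 32.2 CPM against 0.263 and 0.159 CPM, but the tested skeletal muscle markers summed to 13.3 and 10.2 CPM against 16 and 16.5 CPM and no notochord marker had enough counts to be tested. Endoderm, pancreas and blood genes rose in 2 of 32 copies and fell in 4, together 18.8%, near the 20.5% of all genes. Fewer of them rose and fewer fell whichever library was left out. The endoderm markers summed to 1.34 and 1.79 CPM against 5.94 and 9 CPM, and the pancreas markers to 0.983 and 1.21 CPM against 1.6 and 0.757 CPM. Of 5 cement gland marker copies 2 rose, among them ag1.S, the gland's secreted marker, at 153 and 181 CPM against 37.7 and 51.5 CPM, a call lost without control replicate 1. Both groups received dexamethasone, so this contrast cannot check the action of the hormone. Dexamethasone response genes rose in 8 of 33 copies and fell in 4, together 36.4% against 20.5% of all genes. Fewer rose and fewer fell whichever library was left out. The strongest, zbtb16.L, stood at 39.5 and 83.9 CPM against 1.13 and 2.23 CPM.

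The genes higher at 25 h fell into different classes by their level in 6 h controls. Of the 3609 genes higher at 25 h, 1465 or 40.6% had a control level at 6 h at or above the Ptf1a level at 25 h, and 1323 or 36.7% had one under 25% of it. The lists stood at both ends of this range. Of 40 risen cytoskeleton genes 38 had been under 25% of their later level, and of 21 risen crest specifiers 16 had been. Of 28 risen genes of replication and mitosis 24, or 85.7%, had already been at or above that level in 6 h controls, and rrm2.2.L had stood at 160 and 190 CPM there. Neural plate factors were divided, with 15 of 40 in each class, and lhx5.L, at 136 and 118 CPM in 6 h controls, was among those that were higher before. On the side of the falls, 1614 of 2619 genes, or 61.6%, had a 6 h control level at or below the later Ptf1a level, and this held for 68 of 80 axoneme genes (85%) and 28 of 36 ionocyte genes. These counts set levels side by side and carry no test.

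**Figure D4:**
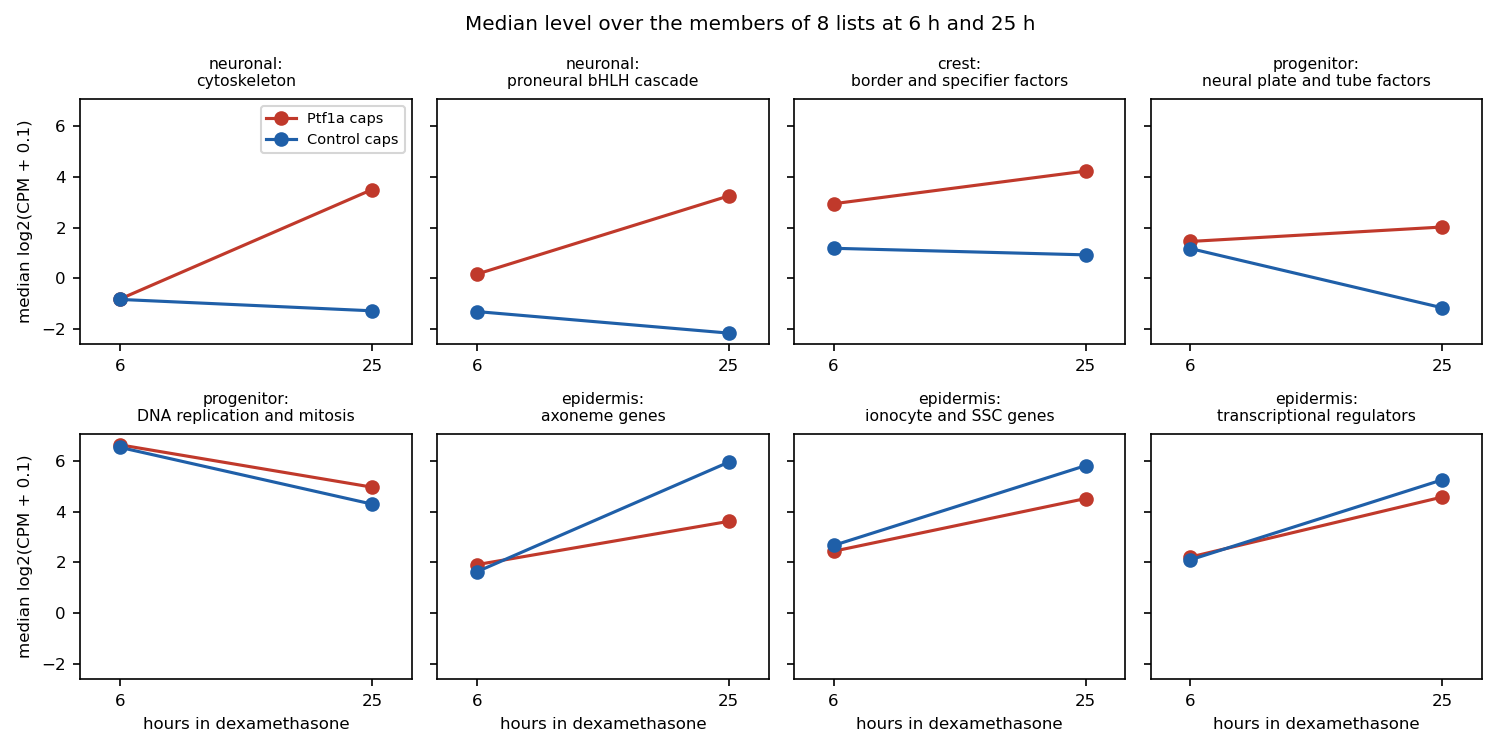
Median over the tested members of 8 lists of log2(CPM + 0.1), with CPM averaged over the 2 libraries of each group, at 6 h and 25 h (x axis, hours in dexamethasone) in Ptf1a caps (red) and control caps (blue); SSC stands for small secretory cell. Cytoskeleton genes start together near -0.8 and part to 3.50 and -1.29, replication and mitosis genes fall in both groups and less in Ptf1a caps, and axoneme genes climb to 5.96 in controls and to 3.62 in Ptf1a caps.

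Whether the effect of Ptf1a differed between the times was tested as the difference of both effects in the same fit, which shares the 4 libraries at 25 h with the comparison above. The effect at 25 h was above that at 6 h for 1358 genes (4.47%) and below it for 1623 (5.34%), together 9.81%. Without 1 of the 8 libraries these counts ranged from 570 to 1072 and from 734 to 1463, with every omission but that of Ptf1a replicate 2 at 25 h lowering at least 1 of them over 1.5 times. Axoneme genes had the most regular shift, with 64 of 99 below and 51 to 59 when 1 library was left out. Inhibitory fate factors were above in 15 of 45 copies, with 10 to 13 when 1 library was left out, and below in 3. The fibronectin gene fn1.S (chromosome 9_10S, 67406688 to 67450856), a matrix protein, went up from 6 h to 25 h in Ptf1a caps and down in controls. It was at 1005 and 1808 CPM against 25.3 and 32.7 CPM at 25 h, and at 370 and 325 CPM against 263 and 301 CPM at 6 h. The difference between its effects was 5.30 on the log2 scale (adjusted p = 0.00029). The sign was opposite for arl4a.S, a small GTPase gene, with a difference of -4.70 (adjusted p = 0.00014). It stood at 251 and 343 CPM against 15.3 and 18.3 CPM at 6 h and at 12.7 and 11.5 CPM against 20.7 and 14.9 CPM at 25 h. The dexamethasone response gene tsc22d3.L followed it, at 92.8 and 136 CPM against 7.33 and 12.5 CPM at 6 h and at 17.2 and 13.7 CPM against 19.4 and 17.5 CPM at 25 h.

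A direct test against Neurog2 caps at 25 h asked which genes differed between caps given each factor. Ptf1a caps were higher for 1559 genes (5.13%) and lower for 1273 (4.19%). The 2 Neurog2 libraries differed from each other in neuronal genes, since the proneural cascade summed to 428 CPM in replicate 1 and 1260 CPM in replicate 2, and to 944 and 1050 CPM in Ptf1a caps. Without Neurog2 replicate 1 the counts were 554 and 492, without Neurog2 replicate 2 they were 802 and 798, and without Ptf1a replicates 1 and 2 they were 1072 and 458, and 991 and 607. Generic neuronal genes seldom differed at this spread: of 55 cytoskeleton genes 1 was higher and 2 lower (0 to 3 and 0 to 5 when 1 library was left out), and tubb3.L was at 45.2 and 55.2 CPM in Ptf1a and 84.8 and 371 CPM in Neurog2 caps. Inhibitory fate factors did differ, with 20 of 45 higher in Ptf1a caps and 13 without Neurog2 replicate 1. The inhibitory factor lhx5.L stood at 105 and 75.2 CPM against 0.979 and 0.333 CPM in Neurog2 caps, a log2 difference of 7.06 (adjusted p = 0.00014). The gene pax8.L, which is also in the placode list, stood at 33.6 and 21.6 CPM against 0.508 and 0.666 CPM, a difference of 5.55. The adhesion gene kirrel2.L, known in mice as a target of Ptf1a, followed the same pattern at 51.1 and 47.6 CPM against 0.489 and 0.190 CPM, a difference of 7.14 (adjusted p = 0.00013). Excitatory, motor and sensory factors were lower in 8 of 57 copies and higher in 4, with 3 or 4 lower without Neurog2 replicate 2 or either Ptf1a replicate and 1 or 2 higher whichever library was left out. The glutamatergic selector tlx3.L was at 0.584 and 0.592 CPM against 21.6 and 96.5 CPM, a difference of -6.65 (adjusted p = 0.0013), and its partner drgx.L at 2.98 and 3.31 CPM against 24.0 and 85.0 CPM, a difference of -4.11 (adjusted p = 0.011). The call of drgx.L was lost without Neurog2 replicate 2 or either Ptf1a replicate. The catecholamine enzyme gene th.S was at 1.92 and 1.93 CPM against 21.0 and 41.2 CPM, a difference of -4.01 (adjusted p = 0.00055).

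Progenitor, crest and ciliary genes also differed between both factors. Replication and mitosis genes were higher in Ptf1a caps in 40 of 86 copies and lower in 0, with 23 higher without Neurog2 replicate 2, and pcna.S stood at 38.9 and 40.6 CPM against 8.55 and 7.47 CPM, a difference of 2.31 (adjusted p = 0.00025). Neural plate factors were higher in 36 of 89, with 18, 23 and 23 without Neurog2 replicate 1, Neurog2 replicate 2 and Ptf1a replicate 2. Crest specifiers were higher in 13 of 53, with 10 to 12 when 1 library was left out, and sox9.L stood at 49.99 and 77.0 CPM against 0.527 and 1.14 CPM, a difference of 6.26 (adjusted p = 0.0003). Axoneme genes were lower in 66 of 99, with 43 without Ptf1a replicate 2, and tekt2.S stood at 49.1 and 47.4 CPM against 246 and 204 CPM, a difference of -2.22 (adjusted p = 0.0013). Ionocyte genes were lower in 27 of 61, but in 3 without Neurog2 replicate 1 and in 11 without Ptf1a replicate 2, and higher in 5 (2 whichever library was left out). The ligand bmp4.L was at 76.4 and 77.5 CPM against 161 and 137 CPM, a difference of -0.95 (adjusted p = 0.0053), a call lost without Neurog2 replicate 1 or Ptf1a replicate 1 and in a fit to the 4 libraries alone.

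**Figure D5:**
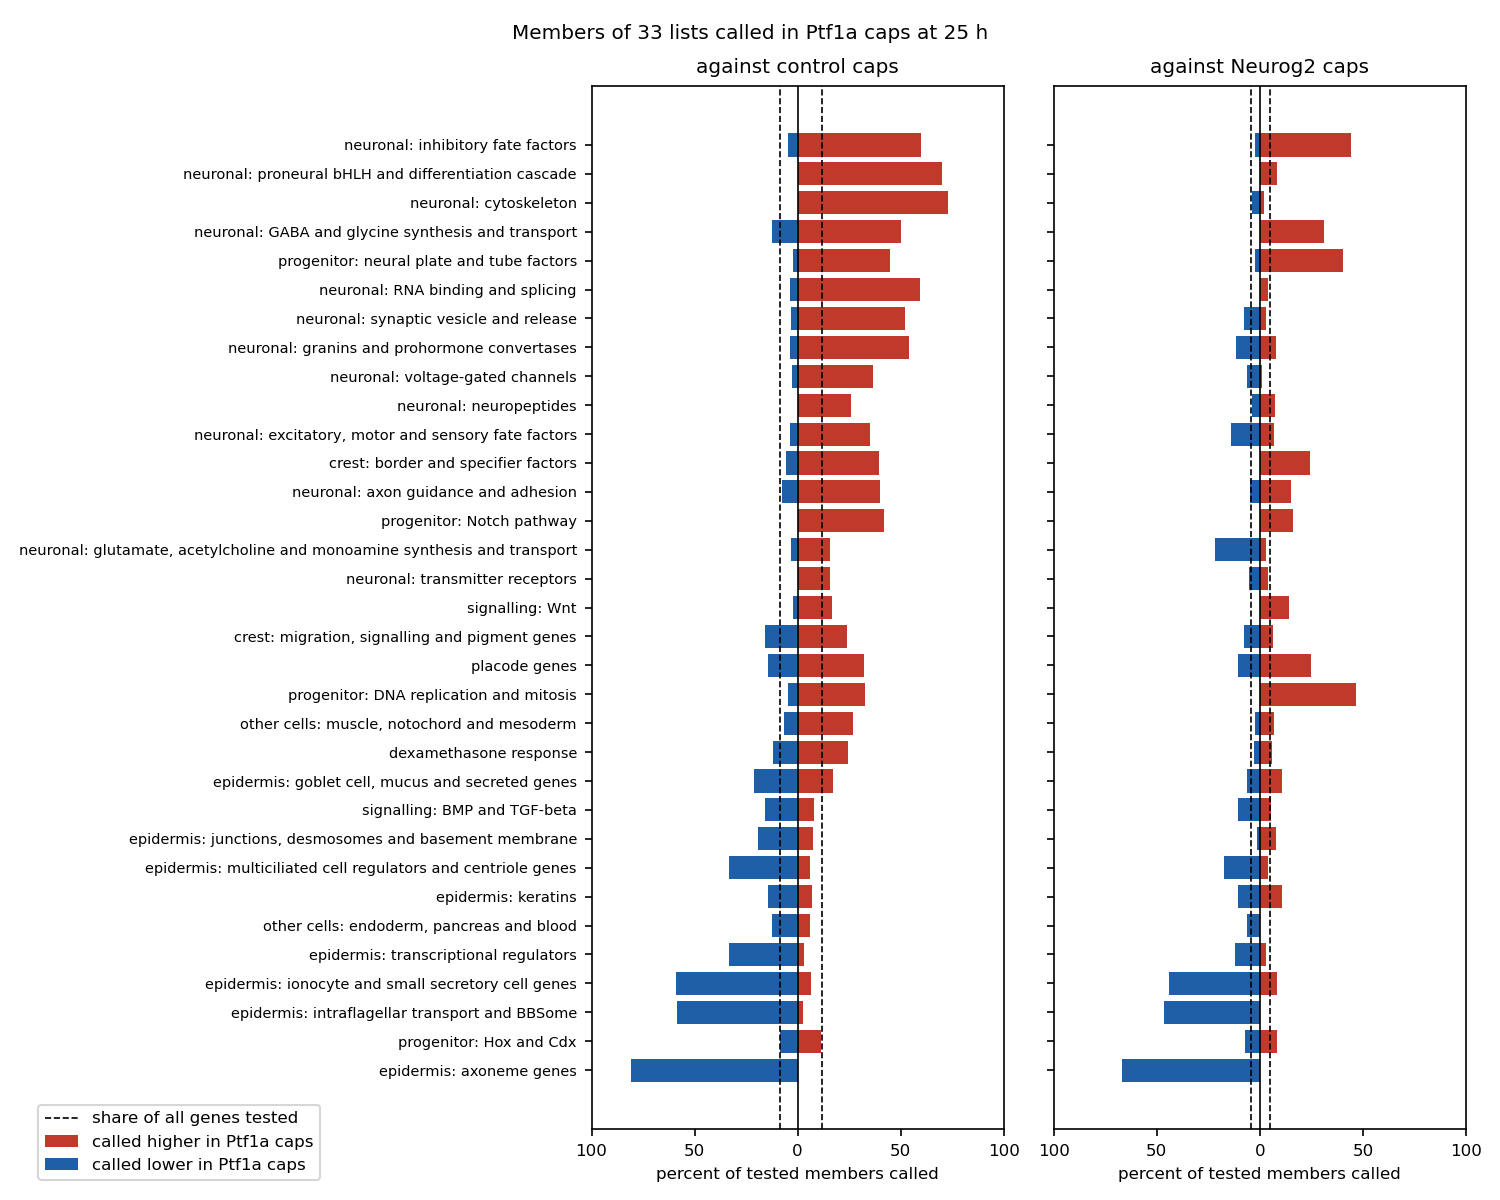
Percent of the tested members of each of 33 lists called higher (red, to the right) or lower (blue, to the left) in Ptf1a caps at 25 h, against control caps (left panel) and against Neurog2 caps (right panel); dashed lines mark the shares of all genes tested, 11.9% and 8.62% on the left and 5.13% and 4.19% on the right. Neuronal cytoskeleton genes stand out against controls and stay near the lines against Neurog2 caps, while inhibitory fate, neural plate, replication and axoneme genes pass the lines in both panels.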

How the data were processed

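Total RNA of Xenopus laevis animal caps was sequenced by the submitters, and the authors deposited raw read counts per gene for each of the 16 libraries. The submitters' processing notes name CASAVA 1.8, STAR 2.5, featureCounts and DESeq2 1.8, and the deposited annotation gives genome build 9.1 in its header. Strandedness and multi-mapping settings are not given in the sources used here. Genes carry the symbols of the files, 27137 of 45038 with an L or S suffix.

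Counts were tested with edgeR 4.0.16 under R 4.3.3 (TMM, filterByExpr by group, robust glmQLFit and two-sided glmQLFTest). All 16 libraries in 8 groups shared 1 estimate of the spread with 8 residual degrees of freedom. P-values were adjusted by Benjamini-Hochberg over 30384 genes, and genes under 0.05 were called. Each SE was worked back from the test, as the size of the log2 difference divided by the square root of its F statistic. For genes with few control counts it is only a rough guide. The contrasts were Ptf1a minus control at 25 h, that effect minus the one at 6 h, and Ptf1a minus Neurog2 at 25 h. The fit for Ptf1a against control at 25 h was also run on counts simulated from its own means and spread, with independent libraries. That run cannot check whether the real libraries follow the fit. Ratios rest on summed counts with 95% exact intervals, and a group with no count is set to a floor of 3 counts over its libraries, and both cover counting error only.

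The comparison, the 33 gene lists and the genes named were chosen with earlier results of these data known, and lists are described by counts without a set test. Named in full were ptf1a, neurog2 and rbpj, the 8 largest changes in each direction, up to 3 members per list with the smallest p in its main direction and 1 in the other, the 5 most abundant genes per group, and 5 genes per direction of each other contrast. Those of the other contrasts had the smallest p after the filters used for the largest changes. Any list member could be named besides. Alternatives were DESeq2 1.42.0 size factors or its Wald test, no filter, fewer libraries in the fit, L and S copies summed, a replicate block, and each library left out. Promoter sequence was not used here.

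Some list members are counted but not reported here by name.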

Additional observations from a re-analysis of the deposited data

Results flagged for a closer look

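Genes whose Ptf1a effect differed between 25 h and 6 h stood out by a test of that difference in the same edgeR fit. The effect was above the earlier one for 1358 genes and below it for 1623. Given here are 5 genes per direction with the difference of both effects on the log2 scale. They had the smallest p among called genes that passed 3 filters. These were a symbol, a mean log2 CPM above 0 over the Ptf1a and control libraries at 25 h, and no overlap between those groups. A single copy was kept per L and S pair. Genes whose groups overlapped again at 25 h were thus left out.

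On the side where the effect was higher at 25 h, fn1.S, which encodes fibronectin, had a difference of 5.30 and lhx5.S, the inhibitory interneuron factor, one of 5.49. The Wnt inhibitor gene notum.L had a difference of 3.47. Its level had been 38.6 and 35.2 CPM in Ptf1a caps and 35.6 and 30.3 CPM in controls at 6 h, so it fell in both groups and further in controls. The replication genes rrm2.2.L and rpa1.L had differences of 4.19 and 2.88, and rpa1.L stood at 22.9 and 27.2 CPM against 4.34 and 4.38 CPM at 25 h and at 28.1 and 28.9 CPM against 32.6 and 40.5 CPM at 6 h, a larger fall in controls. In all 5 the groups lay nearer each other at 6 h than at 25 h.

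On the other side, post.L had a difference of -6.44. This gene stood at 47.7 and 92.2 CPM against 1.61 and 2.03 CPM at 6 h and at 48.5 and 37.6 CPM against 94.3 and 99.1 CPM at 25 h, and its call at 25 h was lost whichever library was left out. The differences were -4.70 for arl4a.S, -4.75 for nhsl2.L, -3.91 for rab15.L and -3.53 for efnb2.L. The ephrin gene efnb2.L changed sides, from 19.7 and 17.0 CPM against 5.01 and 5.60 CPM at 6 h to 40.7 and 36.5 CPM against 139 and 118 CPM at 25 h, while efnb2.S stayed higher in Ptf1a caps, at 48.8 and 64.2 CPM against 4.30 and 11.2 CPM. The construct gene ptf1a.L had a difference of -6.74, a call lost without control replicate 1 at 25 h, and the hormone response gene tsc22d3.L one of -3.78. With 2 libraries per group no single library could be tested as an outlier.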

How the results depend on the processing

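Directions held under every alternative run for the called genes named here except krt19.S and efnb2.S. Their log2 differences turned to -0.355 and -0.50 when L and S copies were summed. Neither was called there (adjusted p = 0.309 and 0.0634, edgeR quasi-likelihood test). That setting also ended the calls of krt12.L, itga4.S, pcsk1.S, ezh2.S, efnb2.L, msx1.L and snai2.L against control. Counts of calls moved more. The DESeq2 Wald test called 4325 genes lower against control, with 574 pairs of copies both lower and 71 in opposite directions, 2420 and 2663 genes in the contrast with 6 h, and 2412 and 2628 against Neurog2. A fit to only the 4 libraries compared called 799 and 828 against Neurog2. Leaving out 1 library gave 1689 to 2772 higher and 1270 to 1874 lower against control, 299 to 425 and 175 to 194 among list members (506 and 279 with all), 233 to 427 pairs both higher, 80 to 176 both lower and 7 to 23 opposite, 570 to 1072 and 734 to 1463 in the contrast with 6 h, and 554 to 1072 and 458 to 798 against Neurog2. The fits behind these keep the spread of the other groups, and a lone library is assumed to vary like them.

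Same-numbered libraries deviated together in all 28 pairs of groups (r from 0.13 to 0.697, and 0.341 for Ptf1a and control at 25 h). The labels do not say what a number marks and there are 2 numbers, so a pairing is given here as a hint from the data. With a replicate block, 4665 genes were higher and 3620 lower against control, 458 pairs of copies were both lower and 75 opposite, and the other contrasts gave 2046 and 2643, and 2578 and 2166. With the replicate block within time, the counts were 5875 and 4994 against control, 423 list members lower, 1064, 734 and 144 pairs of copies, 3048 and 4184 in the contrast with 6 h, and 3868 and 3635 against Neurog2.

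The main limit is 2 libraries per group. CPM cannot show whether total RNA per cap changed, and the most abundant genes took 10.9% and 12.9% of counts in Ptf1a and 18.0% and 19.8% in control libraries for the top 10. With DESeq2 size factors the all-gene median was -0.02 in place of 0.08.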

Other observations

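Some genes of chromatin, extracellular matrix and retinoic acid metabolism also rose in Ptf1a caps. These groups were put together after their values were seen and are given without a test, beside shares of 11.9% higher and 8.62% lower over all genes. Of 50 tested chromatin genes 32 rose and 0 fell. The maintenance DNA methyltransferase dnmt1.L stood at 36.7 and 36.4 CPM against 6.65 and 6.61 CPM, a log2 difference of 2.46 ± 0.29 (adjusted p = 0.00026), but had been at 258 and 253 CPM in 6 h controls. The Polycomb methyltransferase ezh2.S was at 16.9 and 17.0 CPM against 5.64 and 5.58 CPM, and the remodeller hells.L at 9.28 and 12.6 CPM against 1.35 and 1.04 CPM. Of these 50 genes 25 were also higher than in Neurog2 caps. Among 103 extracellular matrix genes 22 rose and 0 fell, and 10 were higher than in Neurog2 caps. The basement membrane gene nid2.L stood at 86.9 and 118 CPM against 15.6 and 18.3 CPM. While fn1.S was at 1005 and 1808 CPM against 25.3 and 32.7 CPM, its homeolog fn1.L, at 24.9 and 22.3 CPM against 12.2 and 36.4 CPM, was not called.

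Retinoic acid patterns the hindbrain and spinal cord. Of 33 tested genes of its synthesis, breakdown and binding 8 rose and 0 fell, and 7 were higher than in Neurog2 caps. The degrading enzyme cyp26c1.L stood at 348 and 281 CPM against 0.188 and 1.99 CPM, a log2 difference of 8.34 ± 0.93 (adjusted p = 0.00023). The synthesizing enzymes aldh1a2.L and rdh10.L rose too, the former to 21.9 and 37.5 CPM from 0.263 and 0.239 CPM, the latter to 40.7 and 35.7 CPM from 2.56 and 2.79 CPM. Genes of breakdown and of synthesis thus rose in the same caps. Secretory pathway genes lay on the other side, with 24 of 79 lower and 2 higher, and 0 lower than in Neurog2 caps. The translocon gene sec61a1.L stood at 317 and 551 CPM against 834 and 958 CPM, a call lost without either control replicate or Ptf1a replicate 1.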
